A study of Mus musculus and Homo sapiens with 56 samples.

Results

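The regions described here are merged stretches of 1500 bp or more of the human genome. Each overlaps an N6-methyladenosine (m6A) peak of HEK293T chromatin RNA in all 6 deposited peak lists, though a single list need not cover the whole stretch. The regions were chosen by 2 measured values, the number of lists with a peak and the width of the merged region. Before that, every peak of the 6 lists was merged wherever peaks touched or shared at least 1 bp. The merge gave 28812 regions, of which 10548 (36.6%) were overlapped by all 6 lists. Of these, 1965 were 1500 bp or wider, which is 6.82% of all merged regions and 18.6% of those held by all 6 lists. The other 8583 regions held by all 6 lists were narrower and serve as the comparison. A further 139 regions reached 1500 bp but were missing from at least 1 list, so 2104 merged regions were that wide in all.

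The series holds 56 samples from mouse embryonic stem cells and from HEK293T, a human embryonic kidney line, and sets m6A beside the histone mark H3K9me2. The 6 lists compare HEK293T cells that were infected with lentivirus carrying a short hairpin RNA (shRNA) against GFP, ALKBH5 or FTO and then selected with puromycin. Each hairpin has 2 lists, each from 1 immunoprecipitated library and its input. The shGFP cells are the control and carry a hairpin against a gene that human cells lack. Chromatin RNA was broken into short fragments and pulled down with an antibody to m6A. The labels give no time after infection, do not say whether the replicates were separate cultures, and give no measured level of ALKBH5 or FTO. The lists hold no expression values, so neither the knockdown nor the cell type could be checked in them.

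m6A is the most common internal modification of messenger RNA and is also found on long non-coding and other nuclear RNA. A complex built around METTL3 and METTL14 writes it while RNA is being transcribed, ALKBH5 and FTO can remove it, and proteins with a YTH domain read it. FTO also acts on a related modification next to the cap. m6A is known to be dense near stop codons, in long exons and in 3' ends, so that neighbouring sites can fall close to each other. Antibody pulldown of fragmented RNA shows such a cluster as 1 broad peak or several joined ones and does not resolve single sites. The peaks carry no strand, and no human gene annotation was used here, so each region is given by its hg38 position alone.

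The 1965 wide regions had a median width of 1882 bp, with quartiles of 1663 and 2296 bp and a maximum of 10785 bp. Widths of 2000 bp or more were reached by 779 regions, 3000 bp by 175, 4000 bp by 55 and 5000 bp by 15. Together the wide regions held 35.5% of all bases in the regions held by all 6 lists, whose narrower members had a median width of 837 bp. The distribution fell off smoothly across the limit. There were 458 regions of 1400 to 1499 bp and 324 of 1500 to 1599 bp, and their median fold enrichment over the lists was 13.1 and 14.0. Just inside the limit stood chr15:30777016-30778515 and chr2:241974666-241976165, both of 1500 bp, and chr10:21494403-21495903 of 1501 bp. The regions just outside were chr15:73367500-73368998 of 1499 bp, and chr16:3282707-3284204 and chr18:73249105-73250602 of 1498 bp. The last of these had a fold enrichment of 28.2 to 52.4 in the 6 lists, above all 3 regions just inside, which lay between 4.996 and 14.2. Height therefore varied widely among regions of nearly equal width.

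**Figure D1:**
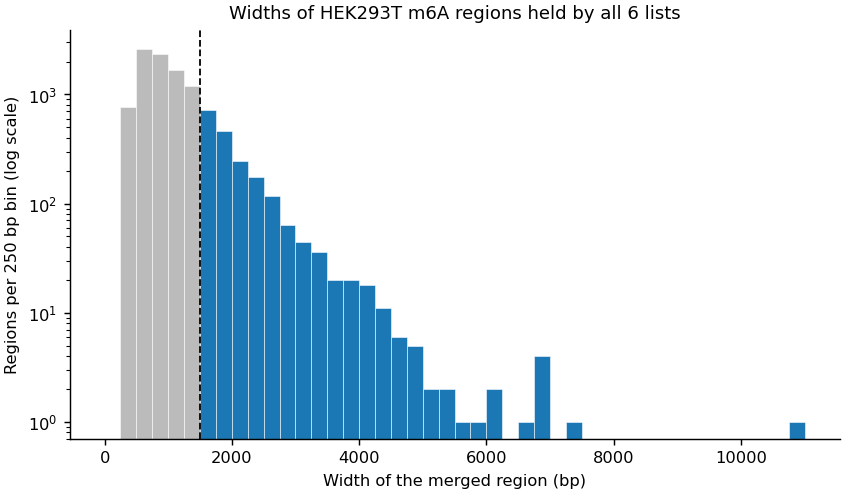
Number of regions held by all 6 lists (vertical axis, log scale) by width of the merged region in bins of 250 bp (horizontal axis). The dashed line marks 1500 bp; the 1965 regions to its right, in blue, have a median of 1882 bp and reach 10785 bp, and the 8583 narrower regions are grey.

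The widest region, chr9:40904996-40915780, spans 10785 bp and was cut into very different numbers of peaks from list to list. The shGFP lists had 4 and 1 peaks there, the shALKBH5 lists 5 and 6, and the shFTO lists 8 and 5. The bases covered were 10103 and 10773 bp in shGFP, 9359 and 9130 bp in shALKBH5, and 7592 and 9416 bp in shFTO. Both knockdown groups thus covered less of this region than either shGFP list, and the list with the most peaks covered the least. The highest fold enrichment of a peak in it hardly moved: 15.5 and 13.9 in shGFP, 16.2 and 15.7 in shALKBH5, and 17.3 and 15.3 in shFTO. Its highest summit lay between 275 and 351 bp from the region's start in 5 lists and at 8372 bp in shALKBH5 replicate 2. That list also had a summit at 287 bp of nearly the same height, with a fold enrichment of 15.54 against 15.73 at 8372 bp.

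The second widest, chr14:104941504-104948991 (7488 bp), also gave 29 peaks over the 6 lists. It had 6 and 6 peaks in shGFP, 4 and 5 in shALKBH5, and 6 and 2 in shFTO, with a fold enrichment of 16.7 to 19.1 in every list. Its highest summit lay at 657 and 686 bp in shALKBH5 replicate 1 and shFTO replicate 1 and between 3216 and 3783 bp in the other 4 lists. The lists thus differed in which place had the highest peak, in some by a small margin. In shFTO replicate 1 the fold enrichment was 19.1 at 686 bp and 18.1 at 3209 bp. In shGFP replicate 1 it was 16.7 at 3783 bp and 15.7 at 728 bp. In shALKBH5 replicate 1 the margin was larger, with 18.5 at 657 bp and 11.5 at the next highest summit.

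In other regions the lists had few long peaks and highest summits close together. At chr8:143915638-143922484 (6847 bp) the lists had 1 or 2 peaks, covered 5987 to 6836 bp, and put the highest summit within 29 bp of each other. The fold enrichment there was 23.4 and 17.9 in shGFP, 24.6 and 23.4 in shALKBH5, and 27.3 and 26.4 in shFTO. As deposited, both lists of each knockdown group were above both shGFP lists, though shALKBH5 replicate 2 and shGFP replicate 1 hardly differed. After centring of the lists the log2 differences were 0.21 ± 0.32 (SE) in shALKBH5 and 0.34 ± 0.32 in shFTO, with adjusted p of 0.971 and 1.00 (limma, Benjamini-Hochberg). The difference was thus about the size of its error or smaller. At chr10:128102673-128109500 (6828 bp) 5 lists had 2 peaks and shFTO replicate 1 had 3. The highest summits there lay within 12 bp of each other, and the fold enrichment was 15.1 and 9.28 in shGFP, 10.6 and 12.8 in shALKBH5, and 13.3 and 11.6 in shFTO. Here the shGFP replicates were the highest and the lowest of the 6 lists.

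Other regions among the 10 widest had their highest summit at more than 1 place. At chr3:49651284-49658126 (6843 bp) it lay between 4400 and 4457 bp from the start in 5 lists and at 694 bp in shALKBH5 replicate 2. The fold enrichment of this region was 29.2 and 28.7 in shGFP, 31.6 and 20.6 in shALKBH5, and 22.5 and 39.0 in shFTO, so each knockdown had 1 list above and 1 below both shGFP lists. At chr4:125314859-125321674 (6816 bp), the strongest of the 10, the fold enrichment was 36.8 and 24.8 in shGFP, 30.8 and 40.2 in shALKBH5, and 29.9 and 30.8 in shFTO. Its summit was at 2239 to 2255 bp from the start in 3 lists and at 5721 to 6441 bp in the other 3, and the second shGFP list covered all 6816 bp with 1 peak. The summit span was 3798 bp at chr16:89279222-89285878 (6657 bp), 2601 bp at chr2:73447857-73454028 (6172 bp) and 3149 bp at chr21:33549292-33555129 (5838 bp). Of these 3, the region on chromosome 21 had the largest share of its bases in a peak of every list, 91.6%, with 5353 to 5829 bp covered per list. At chr19:58353593-58359603 (6011 bp) the summits lay within 119 bp, but the region was split into 2 to 4 peaks per list and only 54.5% of its bases were in a peak of every list. Its fold enrichment was 16.4 and 24.2 in shGFP, 15.8 and 26.3 in shALKBH5, and 19.4 and 25.2 in shFTO, lower in the first than in the second list of every group.

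**Figure D2:**
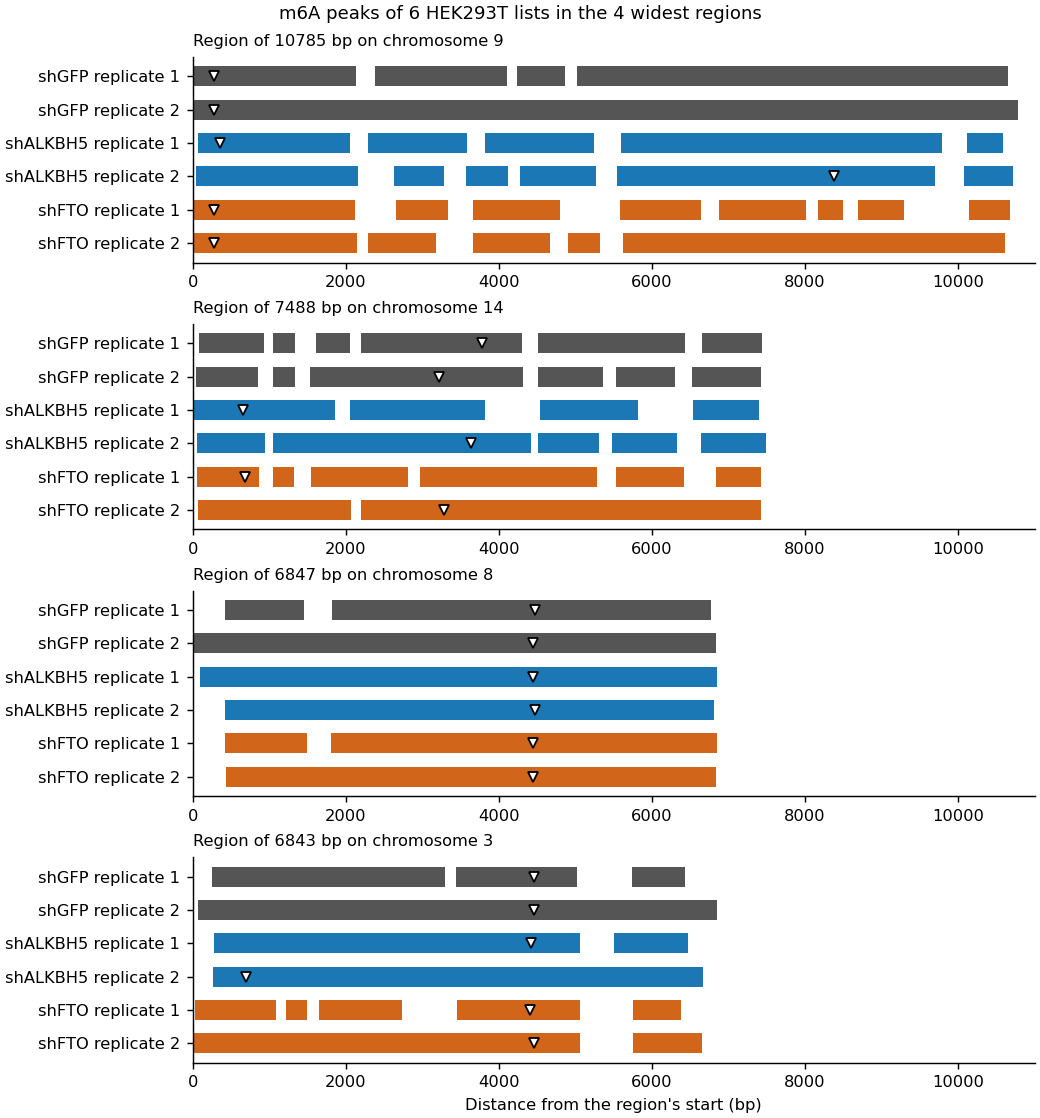
Peaks (bars) of the 6 lists in the 4 widest regions, as distance in bp from each region's start; triangles mark the summit with the highest fold enrichment in each list. The region of 10785 bp on chromosome 9 is split into 1 to 8 peaks, whereas the region of 6847 bp on chromosome 8 is 1 or 2 peaks with summits within 29 bp of each other.

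None of the 10 strongest wide regions was among the 10 widest. The region with the highest geometric mean of fold enrichment over the 6 lists, chr17:82253251-82255727 (2477 bp), reached 51.7 and ranked 9 among the 10548 regions held by all 6 lists. Its values were 42.1 and 41.3 in shGFP, 57.7 and 61.4 in shALKBH5, and 59.4 and 52.2 in shFTO. All 4 knockdown lists were above both shGFP lists, with centred log2 differences of 0.49 ± 0.32 (SE, adjusted p = 0.934) and 0.36 ± 0.32 (adjusted p = 1.00) in limma with Benjamini-Hochberg adjustment. The non-overlap did not amount to a difference beyond the spread between lists.

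At chr7:6153619-6155195 (1577 bp) the values were 39.3 and 32.6 in shGFP, 53.7 and 63.3 in shALKBH5, and 53.4 and 50.7 in shFTO. This was the largest shALKBH5 difference of the 10 strongest regions, log2 0.68 ± 0.32 (SE, adjusted p = 0.844, limma with Benjamini-Hochberg adjustment). Its 6 summits lay within 25 bp of each other. A second region on the same chromosome, chr7:149474093-149475824 (1732 bp), had 39.9 and 39.6 in shGFP, 46.2 and 53.5 in shALKBH5, and 48.5 and 59.9 in shFTO.

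At chr5:177502752-177504670 (1919 bp) replicates disagreed most among the 10 strongest. The fold enrichment there was 26.1 and 54.2 in shGFP, 64.9 and 56.0 in shALKBH5, and 35.5 and 58.0 in shFTO. The shGFP lists alone differed by more than a factor of 2, and the shFTO values overlapped them. The region chr2:60927882-60929655 (1774 bp) was the most alike in extent. Every list covered it with 1 peak of 1736 to 1773 bp, 97.9% of its bases lay in a peak of all 6 lists, and its fold enrichment was 41.5 to 46.0 in 5 lists and 64.2 in shALKBH5 replicate 2.

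The other 5 of the 10 strongest regions were chr1:237055668-237057445, chr10:35640667-35642383, chr8:2000022-2001973, chr16:19113439-19116388 and chr20:1304646-1306281. Their geometric means lay between 46.3 and 47.7, and all 5 kept their highest summits within 64 bp. At chr10:35640667-35642383 (1717 bp) the lists put the summit within 13 bp of each other, yet the covered bases were 1044 and 1717 bp in shGFP, 1294 and 1060 bp in shALKBH5, and 840 and 1699 bp in shFTO. The covered bases thus differed by a factor of 2.04 around summits that lay close together.

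Across all wide regions, the highest fold enrichment of a region had a median of 16.1 and 14.4 in the shGFP lists, 15.2 and 17.2 in shALKBH5, and 15.8 and 17.1 in shFTO. Expressed per group, the medians were 15.3 ± 1.20 (SD, n = 2 lists) in shGFP, 16.2 ± 1.40 in shALKBH5 and 16.4 ± 0.890 in shFTO. The first shGFP list lay above the first list of either knockdown, so the groups overlapped. The log2 medians of shALKBH5 and shFTO exceeded those of shGFP by 0.08 and 0.11, both with p = 0.667 in an exact two-sided permutation test of 2 lists against 2, which cannot go below 0.333. Between shALKBH5 and shFTO the difference was -0.02 (p = 1, same exact test).

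Wide regions had higher peaks than the narrower regions held by all 6 lists, in each list. The narrower regions had medians of 11.1 and 10.4 in shGFP, 9.98 and 11.8 in shALKBH5, and 10.4 and 11.8 in shFTO. The median log2 difference between wide and narrower regions was 0.54 and 0.48 in shGFP, 0.61 and 0.55 in shALKBH5, and 0.61 and 0.54 in shFTO. Its mean was 0.55 ± 0.05 (SD over 6 lists), a factor of 1.47. Width and fold come from the same pulldown over input, and a wide region offers more bases in which to find a highest peak, so this is a description and no p is given. Over single peaks instead of the highest peak per region, the mean difference was 0.31. The 2 shALKBH5 values were above the 2 shGFP values by a mean of 0.07 (p = 0.333, the smallest that the exact permutation test allows), and the shFTO values by 0.06 with overlap (p = 0.667, exact).

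Among the 1000 regions held by all 6 lists with the highest geometric mean of fold enrichment, 411 were wide, and among the first 100, 52 were, against 18.6% of all such regions. Within the wide regions, the median geometric mean was 14.7 in the 1186 regions under 2000 bp, 16.7 in the 604 from 2000 bp, 19.9 in the 120 from 3000 bp and 20.4 in the 55 of 4000 bp or more. Spearman's correlation of width and fold across regions was 0.20 in the 1965 wide regions and 0.42 in all 10548, where the points share the same 6 libraries. The median height thus rose from each width class to the next, while single regions ranged from a geometric mean of 2.12 to 51.7.

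**Figure D3:**
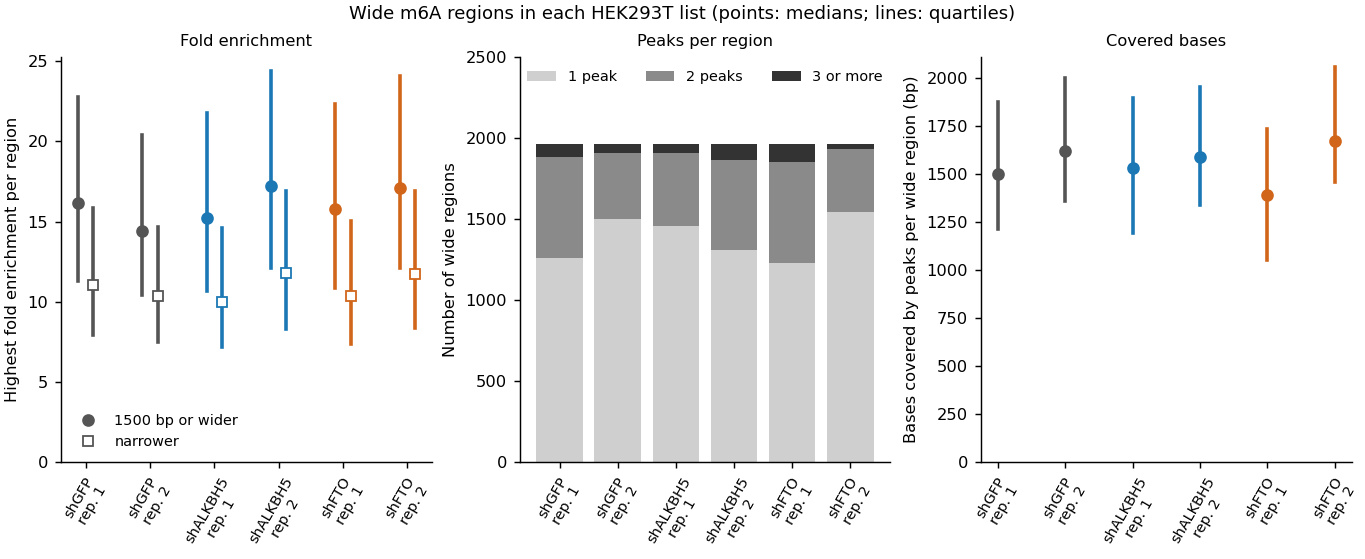
Left, highest fold enrichment per region in each list, as the median (point) and quartiles (line) of the 1965 wide regions (filled) and the 8583 narrower ones (open). Middle, number of wide regions with 1, 2 or at least 3 peaks in each list. Right, median and quartiles of the bases covered per wide region. The replicates of a group differ as much as the groups do; shFTO replicate 1 has the least covered bases (median 1389 bp) and shFTO replicate 2 the most (1670 bp).

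The lists differed in how finely they divided the wide regions, and the largest difference was between the 2 shFTO replicates. Peaks per wide region averaged 1.41 and 1.27 in shGFP, 1.29 and 1.39 in shALKBH5, and 1.44 and 1.24 in shFTO. The group means were 1.34 ± 0.10 (SD, n = 2), 1.34 ± 0.07 and 1.34 ± 0.15, so they were alike to the second decimal while replicates differed by up to 0.21. Narrower regions averaged 1.02 to 1.04 peaks. In the wide regions, 1261 and 1503 had a single peak in the shGFP lists, 1458 and 1311 in shALKBH5, and 1229 and 1542 in shFTO. At least 3 peaks were found in 80 and 55 regions in shGFP, 60 and 101 in shALKBH5, and 112 and 34 in shFTO.

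Lists with fewer peaks per region had longer ones. The median length of a peak within a wide region was 1047 and 1392 bp in shGFP, 1219 and 1202 bp in shALKBH5, and 914 and 1501 bp in shFTO. The bases covered per wide region had medians of 1502 and 1619 bp in shGFP, 1529 and 1589 bp in shALKBH5, and 1389 and 1670 bp in shFTO. The corresponding group means were 1561 ± 83 bp (SD, n = 2), 1559 ± 42 bp and 1530 ± 199 bp. Both shGFP and both shALKBH5 lists lay between the 2 shFTO lists. No test was made of covered bases or peak numbers, since the bases covered make up the width by which the regions were chosen.

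The width of a merged region is a union over lists and is not reached by every list. A list covered 1500 bp or more in 986 and 1239 of the 1965 regions in shGFP, 1036 and 1183 in shALKBH5, and 787 and 1371 in shFTO. In 608 regions (30.9%) all 6 lists did so, and in 211 (10.7%) none did. Each list was also left out in turn, and the span from the first to the last remaining peak of a region was taken. This span fell under 1500 bp in 21 regions without shFTO replicate 1 and in 129 without shFTO replicate 2. It did so in 107 regions without the second shGFP list and in 38 to 72 without each of the other 3 lists. The merge was not repeated, so regions that would split into shorter ones while keeping this span are not counted.

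Most wide regions were not divided the same way everywhere. A single peak in all 6 lists was found in 744 regions (37.9%), at least 2 peaks in all 6 lists in 47, and a mixture in 1174 (59.7%). Regions with 1 peak everywhere had a median width of 1749 bp and those with several everywhere 3166 bp, while their median geometric mean of fold enrichment was 18.5 and 17.9. The 2 classes thus differed in width, with median heights close to each other and above the median of 15.7 over all wide regions. The most divided regions after the 2 widest were chr10:133477486-133481745 (4260 bp), with 22 peaks over the lists, and chr17:80362675-80365914 (3240 bp), with 20. The former had 4 and 3 peaks in shGFP, 3 and 5 in shALKBH5, and 4 and 3 in shFTO. Only 29.9% and 19.9% of the bases of these 2 regions were in a peak of every list.

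Over all wide regions a median of 58.9% of the bases lay in a peak of every list, with quartiles of 39.5% and 75.8%. In 116 regions the share was over 90%, and in 31 no base was shared by all 6 lists, so that those regions were joined by a chain of peaks. Bases found in only 1 list made up 8.72% of the sequence of the wide regions. Between the list with the most and the list with the fewest covered bases the median ratio was 1.47, and 497 regions reached 2 or more.

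The regions with the widest spread of covered bases were wide in the second lists of both knockdowns in 4 of 5 cases. The largest ratio, 10.7, was at chr12:31163455-31167122 (3668 bp), with 1078 and 328 bp covered in shGFP, 1091 and 2588 bp in shALKBH5, and 691 and 3495 bp in shFTO. No base of it was in a peak of all 6 lists, and the fold enrichment was modest, from 5.65 to 12.8. At chr20:53455557-53459703 (4147 bp) the covered bases were 461 and 828 bp in shGFP, 1141 and 4147 bp in shALKBH5, and 1382 and 3862 bp in shFTO. Here the height moved with the extent: the fold enrichment was 12.1 and 12.9 in shGFP, 9.53 and 43.5 in shALKBH5, and 11.1 and 40.8 in shFTO. Those 2 second lists stood above all the other 4 lists, and all 6 summits lay within 38 bp of each other. Since the first lists of both knockdowns were no higher than shGFP, the limma differences were 0.68 ± 0.48 and 0.71 ± 0.48 (log2 ± SE, adjusted p = 0.934 and 0.978, Benjamini-Hochberg), with the largest errors of any region named here.

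At chr11:74877662-74881594 (3933 bp) the covered bases were 737 and 564 bp in shGFP, 433 and 3879 bp in shALKBH5, and 672 and 2714 bp in shFTO. The same 2 lists were again the wide ones. At chr3:23350603-23353393 (2791 bp) they covered 2685 and 1940 bp, against 363 to 1046 bp in the other 4. The exception was chr22:50584388-50586607 (2220 bp), where the shFTO lists covered 280 and 1304 bp and the other 4 lists 1145 to 2145 bp. These 2 lists also held the most peaks in all, 20665 in shALKBH5 replicate 2 and 22219 in shFTO replicate 2, against 16211 to 19720 in the other 4 lists. What part the number of peaks called has in these regions was not tested.

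The lists placed the highest peak close together in some regions and far apart in others. The highest summits of the 6 lists spanned a median of 152 bp per region, with quartiles of 55 and 649 bp. They lay within 100 bp in 766 regions (39.0%) and were more than 500 bp apart in 634 (32.3%). In how many of these the highest peaks were of nearly equal height was not counted. Regions with 1 peak in every list had a median span of 118.5 bp and those with at least 2 in every list 1019 bp. Any pair of lists of the same group put its summits a median of 29 to 31 bp apart, and pairs from different groups 26 to 38 bp.

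Pairs of lists from 1 group were no more alike than pairs from different groups by these measures. The median absolute difference in centred log2 fold enrichment over the wide regions was 0.29 to 0.35 within groups (3 pairs) and 0.26 to 0.36 between groups. The covered bases of a region differed by a median factor of 1.13 to 1.20 within groups and 1.10 to 1.20 between them. The same number of peaks was found in 65.6% to 70.3% of regions within groups and in 65.7% to 72.3% between them. Pearson correlations of log2 fold enrichment across the wide regions were 0.76 to 0.82 within groups and 0.74 to 0.83 between groups. From 1 to 13 peaks had identical coordinates in any pair of lists, so no list was a copy of another.

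**Figure D4:**
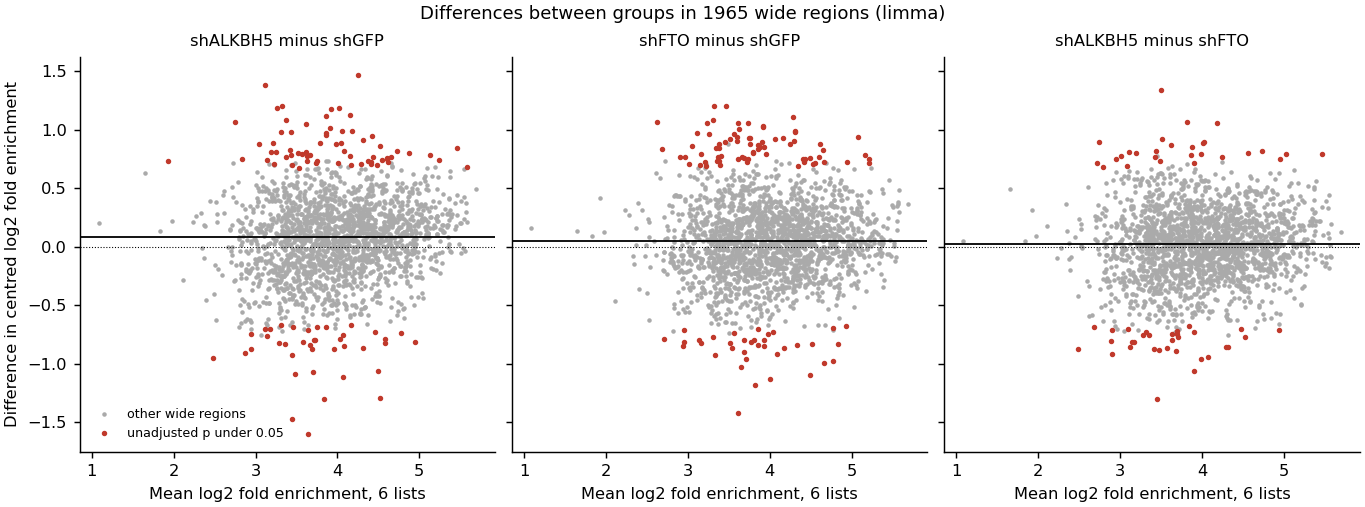
Difference in centred log2 fold enrichment between groups (vertical axis) against the mean log2 fold enrichment over the 6 lists (horizontal axis) for the 1965 wide regions; the solid line is their median and the dotted line is 0. Red points have an unadjusted limma p under 0.05; no region passed an adjusted p of 0.05 in any of the 3 comparisons.

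No wide region differed between groups in fold enrichment at an adjusted p under 0.05 (limma with Benjamini-Hochberg adjustment over all 10548 regions, of which 0% were called in each comparison). At an unadjusted p under 0.05, 105 wide regions (5.34%) passed for shALKBH5 against shGFP, where 5.67% of all regions did. For shFTO against shGFP it was 110 (5.60%), against 5.51% of all regions. Between shALKBH5 and shFTO it was 60 (3.05%), against 4.68%. These shares are near or under those of all regions fitted. The smallest adjusted p among wide regions was 0.302, 0.762 and 0.999 in the 3 comparisons. Regions without a peak in some list were not fitted, so peaks lost or gained as a whole lie outside this comparison. Each region was fitted by its highest peak, so a change in a lower peak need not show.

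The precision of these comparisons was limited by having 2 lists in a group. The median SE of a log2 difference was 0.33, which gives a 95% interval of ± 0.68 on the log2 scale, a factor of 1.61 either way. A difference of 2-fold or more in either direction lay outside the 95% interval in 1270 wide regions (64.6%) for shALKBH5, in 1322 (67.3%) for shFTO and in 1384 (70.4%) between the knockdowns. In the remaining regions the interval reached 2-fold in at least 1 direction. The fitted difference itself reached 2-fold in 20, 16 and 5 wide regions.

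The median log2 difference of the wide regions was 0.09 for shALKBH5 minus shGFP, 0.05 for shFTO minus shGFP and 0.02 for shALKBH5 minus shFTO. Over the narrower regions it was 0.02, -0.00 and 0.02, since each list was centred on its median over all regions held by all 6 lists. Positive differences were found in 1181 of the 1965 wide regions (60.1%) in shALKBH5 and in 1116 (56.8%) in shFTO, against 52.3% and 49.9% of the narrower ones. Both shALKBH5 lists were above both shGFP lists in 454 wide regions (23.1%, against 19.5% of all regions) and below both in 249 (12.7%, against 15.6%). The same counts for shFTO were 379 (19.3%, against 16.6%) and 236 (12%, against 15.5%). The 2 comparisons share the shGFP lists. Leaving out single lists moved these medians. The shALKBH5 median was 0.0415 without shGFP replicate 2, 0.0336 without shALKBH5 replicate 1 and 0.128 without shALKBH5 replicate 2. The shFTO median was 0.00907 without shGFP replicate 2, 0.0120 without shFTO replicate 1, 0.0943 without shGFP replicate 1 and 0.0994 without shFTO replicate 2.

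Covered bases, which unlike fold enrichment were not centred by list, showed no such lean to higher values. Both shALKBH5 lists covered more than both shGFP lists in 321 wide regions (16.3%, against 17.8% of all regions) and less in 342 (17.4%, against 15.4%). Both shFTO lists covered more in 230 (11.7%, against 11.5%) and less in 375 (19.1%, against 19.7%). The shares of the wide regions were close to those of all regions in both directions.

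No region met the rule for naming changed ones. After the values were seen, the 2 regions with the smallest p were therefore taken in each direction for shALKBH5 and for shFTO against shGFP, which gave 7 regions, 1 of them in both comparisons. At chr16:89722323-89723830 (1508 bp) the fold enrichment was 13.0 and 9.09 in shGFP, 38.7 and 24.1 in shALKBH5, and 13.9 and 31.1 in shFTO. Both shALKBH5 lists were above both shGFP lists, with a centred log2 difference of 1.47 ± 0.37 (SE, adjusted p = 0.369, limma with Benjamini-Hochberg adjustment). The 2 shFTO lists fell on either side of the second shALKBH5 list. Without shALKBH5 replicate 2 the difference was 1.92, with an adjusted p of 0.0347, so the call depended on which list stood for shALKBH5.

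At chr9:70206782-70208728 (1947 bp) both knockdowns were higher: 6.505 and 4.89 in shGFP, 9.63 and 18.0 in shALKBH5, and 11.9 and 15.3 in shFTO. All 4 knockdown lists exceeded both shGFP lists, by log2 1.20 ± 0.33 (SE) in each comparison. The adjusted p was 0.479 and 0.762 (limma, Benjamini-Hochberg). Its highest summit lay at 1423 and 1341 bp from the start in shGFP and between 897 and 913 bp in all 4 knockdown lists, so that the peaks compared were not at the same place. Of the 7 regions, chr20:3784311-3786641 (2331 bp) was higher in shFTO, with 8.47 and 8.10 in shGFP, 13.9 and 10.8 in shALKBH5, and 14.2 and 22.5 in shFTO. Its summits also differed by group, at 1068 and 664 bp in shGFP, 415 and 431 bp in shALKBH5, and 1601 and 1591 bp in shFTO, and its difference in shFTO was 1.05 ± 0.33 (adjusted p = 0.762, limma).

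Lower values in shALKBH5 were found at chr15:75687313-75688954 (1642 bp), with 18.8 and 13.0 in shGFP, 4.93 and 6.62 in shALKBH5, and 11.4 and 18.2 in shFTO. The difference was -1.48 ± 0.33 (SE, adjusted p = 0.302, limma with Benjamini-Hochberg adjustment), and the 6 summits lay within 78 bp. The covered bases were also a little lower, at 1357 and 1393 bp in shALKBH5 against 1539 and 1624 bp in shGFP and 1558 and 1485 bp in shFTO. The shFTO fold values overlapped those of shGFP. At chr3:192408128-192409925 (1798 bp) the values were 22.9 and 22.2 in shGFP, 5.75 and 9.93 in shALKBH5, and 7.26 and 18.2 in shFTO, a difference of -1.60 ± 0.36 in shALKBH5 with the same adjusted p. The highest summits of this region spanned 755 bp over the 6 lists, so the peaks compared were not all at the same place. The covered bases were lower too, at 1391 and 1798 bp in shGFP against 566 and 1194 bp in shALKBH5. Without shALKBH5 replicate 2 this difference was -1.88 with an adjusted p of 0.0347.

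Lower values in shFTO were found at chr4:1164525-1166372 (1848 bp), with 13.3 and 27.1 in shGFP, 14.0 and 12.4 in shALKBH5, and 5.25 and 10.3 in shFTO. The difference was -1.42 ± 0.38 (SE, adjusted p = 0.762, limma). It was -0.86 without shGFP replicate 2 and -1.98 without shGFP replicate 1, so its size rested on which shGFP list was used. The highest summits of this region spanned 733 bp over the 6 lists, so here too the peaks compared were not all at the same place. At chr12:1492973-1494874 (1902 bp) the values were 17.9 and 19.5 in shGFP, 15.4 and 19.8 in shALKBH5, and 6.67 and 10.9 in shFTO. Here shGFP and shALKBH5 overlapped and both shFTO lists were lower, by -1.18 ± 0.33 (adjusted p = 0.762, limma). Both regions therefore missed the threshold, as did the other 5.

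Wide regions were spread over all autosomes and chromosome X. Chromosome 1 held the most, 180, and chromosome 19 followed with 160. Of the 585 regions held by all 6 lists on chromosome 19, 27.4% were wide, whereas the share lay between 14.8% (chromosome 13) and 21.8% (chromosome 22) on the other autosomes and at 19.05% on X. Chromosomes Y and M held 3 and 2 regions of all 6 lists, none of them wide, and 4 wide regions lay on unplaced or unlocalised scaffolds. Chromosome 19 is known for its high gene density and for clusters of zinc finger genes, which often have a long last exon.

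On chromosome 19, 21 of 45 regions (46.7%) were wide between 50 and 55 Mb. This was the highest share of 211 windows of 5 Mb with at least 20 regions, whose median was 18.2%. A window with fewer regions, from 20 to 25 Mb on the same chromosome, had 7 of 13 (53.8%). Next was a window of chromosome 16 from 30 to 35 Mb with 16 of 37 (43.2%). Between 55 and 60 Mb on chromosome 19, which holds chr19:58353593-58359603, 25 of 81 (30.9%) were wide. Between 5 and 10 Mb it was 5 of 44 (11.4%), so the share on this chromosome was uneven. Windows and chromosomes were compared after the values were seen and without a test.

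**Figure D5:**
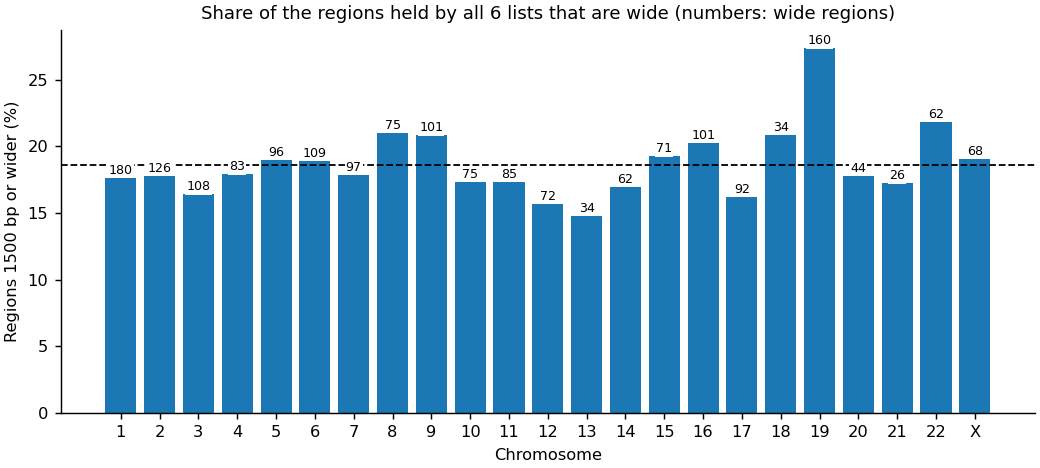
Share of the regions held by all 6 lists that are 1500 bp or wider (vertical axis, percent) on each chromosome, with the number of wide regions above each bar. The dashed line is the share over all chromosomes, 18.6%; chromosome 19 stands at 27.4% and the others between 14.8% and 21.8%.

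Some wide regions lay close to others. Another wide region was within 5000 bp of 190 of them (9.67%), and within 5000 bp of 7.35% of the narrower regions. Any other region held by all 6 lists lay that close to 657 wide regions (33.4%) and to 28.0% of the narrower ones. The gap was 127 bp at chr8:143915638-143922484 and 1878 bp at chr14:104941504-104948991, so a further wide region began near an edge of these 2.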

How the data were processed

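The 6 HEK293T lists are in the narrowPeak layout of MACS2. Per the submitters' processing notes MACS2 2.1.1, HISAT2 2.1.0, Bowtie2 2.3.4.1, Trimmomatic 0.33.0, SAMtools 1.7, Picard 2.16.0 and FastQC were used, with hg38 for human; which of these made the peak lists, and with which settings, is not stated there. As deposited, each peak has a fold enrichment (a ratio of pulldown over control at the summit), a −log10 q, whose smallest value of 1.30 puts the threshold at a q of 0.05, and a summit offset. Each list stands for 1 replicate. Its read depth is unknown, so no counting interval is given. The p-values set differences between groups against the spread between lists, which may be technical. In limma that spread is partly estimated from all regions fitted.

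Peaks were merged with bedtools 2.31.1. The value of a region in a list was its highest fold enrichment, as log2, with no pseudocount. Each list was centred on its median over the 10548 regions held by all 6 lists, and groups were compared in 1 fit over all 6 lists with limma 3.58.1 in R 4.3.3, with Benjamini-Hochberg adjustment over all 10548 regions and a threshold of 0.05. Medians per list were compared by exact permutation. A planned sign-flip test of wide against narrower regions is not reported, because width and fold are not independent. The code was tested on simulated data. Python 3.11.15 with scipy 1.17.1, numpy 2.4.6, pandas 2.3.3 and matplotlib 3.10.9 did the rest.

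The regions, and the rules and tests, were chosen with earlier results of these data known. The rule named the 10 widest regions, the 10 strongest, the 5 with the most peaks, the 5 with the widest spread of covered bases, and the 3 regions on each side of the width limit. It also named up to 5 changed regions per comparison and direction, of which there were none. Alternatives were a −log10 q of at least 2, 50% cover, merging at 50 bp, widths of 1000 and 2000 bp, a mean over peaks, no centring, a fit of wide regions or of 2 groups alone, a replicate block and each list left out. No human annotation or genome sequence was used here, so genes and motifs are not given.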

Additional observations from a re-analysis of the deposited data

How the results depend on the processing

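Under a width limit of 1000 or 2000 bp the number of wide regions became 4844 or 779, and it was 1963 with a −log10 q of at least 2, 1398 when every list had to cover 50% of the region and 1951 when merging needed 50 bp of overlap. No wide region was called between groups in any alternative fit that used all lists of the groups compared. These fits were a mean over peaks, no centring, wide regions or 2 groups alone, a replicate block and a −log10 q of at least 2. For shALKBH5 against shGFP their smallest adjusted p (limma) ran from 0.0927 with only wide regions fitted to 0.907 without centring. The main fit had 0.302. The lowest was 0.276 for shFTO against shGFP with 2 groups alone, and 0.674 for shALKBH5 against shFTO with a mean over peaks. The groups were not fitted again for 50% cover, merging at 50 bp or the other widths. With each list left out in turn (a lone list is then assumed to vary like the other groups), the count called was 0 to 2 for shALKBH5 against shGFP, 0 for shFTO against shGFP and 0 to 1 for shALKBH5 against shFTO, all of these calls without shALKBH5 replicate 2. By replicate number, the deviations of the lists correlated weakly between groups (-0.05, 0.08 and 0.12). This does not show that single lists had nothing in common. Over the wide regions, shALKBH5 replicate 2 and shFTO replicate 2 had the highest Pearson correlation of any pair of lists, 0.83. With shGFP replicate 2 these lists correlated at 0.77 and 0.75. A pairing of single lists was not tested. A replicate block gave 0 called in each comparison, with smallest adjusted p (limma) of 0.430, 0.749 and 0.933. The median log2 difference of shALKBH5 from shGFP was 0.0226 with only wide regions fitted, which centres the lists on them, and 0.0336 to 0.128 with 1 list left out. That of shFTO from shGFP was 0.103 without centring, -0.00348 with only wide regions fitted and 0.00907 to 0.0994 with 1 list left out. For shALKBH5 minus shFTO the range was -0.0182 to 0.0743. The wide minus narrower difference was 0.314 over single peaks, 0.504 from 1000 bp, 0.640 from 2000 bp and 0.543 to 0.570 with 1 list left out. The difference between groups in the uncentred median of wide regions, with alternatives chosen after seeing the data, ranged over lists left out from -0.00358 (without shALKBH5 replicate 2) to 0.173 for shALKBH5 against shGFP, from 0.0264 to 0.186 for shFTO against shGFP, and from -0.110 to 0.0670 for shALKBH5 against shFTO, where it turned positive without shALKBH5 replicate 1 (0.0670) and without shFTO replicate 2 (0.0338). The cause of these shifts was not tested.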
